A study of Mus musculus with 12 samples.

Results

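Expression of 10 genes of the Notch pathway was followed in medulloblastoma tissue of mice. The genes were taken by their symbols as a fixed list, which was chosen with earlier results of these data known. They are the receptors Notch1, Notch2 and Notch3, the ligands Dll1, Dll3 and Jag1, the glycosyltransferase Mfng, and the transcriptional repressors Hes1, Hes5 and Hey1. All 10 were among the 15672 genes of the expression table. RNA-seq of total RNA was available from 12 end-point tumour libraries. The YSGr group (genotype fYap1;fSMO-M2;hGFAPcre, described in the labels as rescued) had 3 male libraries, numbered 7 to 9, and 3 female libraries, numbered 10 to 12. The SG group (genotype fSMO-M2;hGFAPcre) had 3 male libraries, numbered 1 to 3, and 3 female libraries, numbered 4 to 6. Both genotypes therefore carry the activated Smoothened allele, which switches on Sonic hedgehog signalling, and the hGFAP-Cre driver, a human GFAP promoter known to act in radial glia and neural progenitors and their descendants rather than in vessel cells or microglia. YSGr mice carry in addition the conditional Yap1 allele, and no group with the Yap1 allele alone or of normal cerebellum was analysed here. The labels do not say what rescued refers to, how old the mice were, or that each library came from a separate animal, so the p-values describe only how far these libraries scatter, and part of that scatter may be technical.

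Notch receptors are cut when a Delta or Jagged ligand on a neighbouring cell binds them. The released intracellular domain joins the DNA-binding protein RBPJ and switches on target genes, of which the Hes and Hey repressors are the best known, and these in turn hold back proneural factors. In the developing cerebellum the pathway is known for keeping progenitors and radial glia undifferentiated, and in blood vessels for arterial identity and for the coverage of vessels by pericytes. Fringe enzymes such as MFNG add sugars to the receptor and change which ligands it answers to.

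RBPJ is known to bind a site whose core letters are TGGGAA. The core was searched on both strands in the 250 bases before the RefSeq gene start (build GRCm38.p6). Windows were found for 7 of the 10 genes, 8 windows in all, and 1 of these held the core, that of Hes5. Its window is printed because it held 2 cores and because Hes5 had the largest fold change of the 10 genes. Those of Lfng and Hey2, from the wider pathway, were picked by hand as examples among the windows that also hold the core. Of 55 windows of 43 other pathway genes, 13 held it, and that of Nrarp did not. Capitals mark the core, written TTCCCA where it lies on the opposite strand.

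Hes5, chr4:154960673-154960922, plus strand: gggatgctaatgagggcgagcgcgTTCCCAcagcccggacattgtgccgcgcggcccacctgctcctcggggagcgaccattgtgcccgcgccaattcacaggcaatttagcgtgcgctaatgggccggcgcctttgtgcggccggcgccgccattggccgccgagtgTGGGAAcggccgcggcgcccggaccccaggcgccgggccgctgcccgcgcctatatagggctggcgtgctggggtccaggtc
Lfng, chr5:140607091-140607340, plus strand: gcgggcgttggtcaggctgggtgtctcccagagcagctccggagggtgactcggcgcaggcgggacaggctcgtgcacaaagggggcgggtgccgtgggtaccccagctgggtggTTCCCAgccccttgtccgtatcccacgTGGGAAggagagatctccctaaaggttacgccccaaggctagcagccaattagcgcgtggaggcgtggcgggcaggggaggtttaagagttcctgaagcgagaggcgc
Hey2, chr10:30842784-30843033, minus strand: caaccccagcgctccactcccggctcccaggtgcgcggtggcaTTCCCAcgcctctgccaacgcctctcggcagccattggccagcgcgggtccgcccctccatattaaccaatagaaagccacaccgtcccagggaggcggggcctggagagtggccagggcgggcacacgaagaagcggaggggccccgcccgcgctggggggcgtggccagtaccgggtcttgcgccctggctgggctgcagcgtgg

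In Hes5 the cores began 226 and 82 bases before the gene start and faced opposite ways, and both belonged to the longer site GTGGGAA, which contains the core. In Lfng they began 135 and 108 bases before the start, also on opposite strands, and 1 of them was the longer site. In Hey2 the single core, 207 bases before the start, was the longer site. Of 32851 such windows in the genome, 21.6% held the core, 2.77% held it at least 2 times, 5.42% held the longer site and 0.161% held the longer site at least 2 times. These are letter matches and not measured binding sites. The letters GGAATG are known to be recognised by TEAD factors, the DNA-binding partners of YAP. Among the 10 genes they were in the windows of Notch1 and Dll3. Of the printed windows only that of Hey2 held them, on the opposite strand, and 12.6% of all windows did.

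The estimated depth was 8854769 to 9478651 reads per library, and 1 read was worth 0.100 to 0.111 CPM (counts scaled to a common library size). Yap1, the gene targeted in YSGr mice, had 14 to 33 estimated reads in the male YSGr libraries and 7 to 12 in the female ones, against 174 to 253 in SG libraries, a 12.3-fold lower mean CPM in YSGr, which matched the labels. Granule neuron progenitor markers, which mark the cell of origin of this tumour type, were present in all libraries, with a summed level of 3528 to 5967 CPM in YSGr and 4828 to 5355 CPM in SG. A pair of libraries stood apart before any comparison. SG male 2 had long genes low and short genes high: across genes, the Spearman correlation between exon length and the difference from the other SG libraries was -0.60 in it, against 0.25 to 0.36 in the other SG libraries and -0.20 to 0.17 in YSGr. Each library was compared with the mean of the others of its genotype, so SG male 2 is part of the reference behind the 0.25 to 0.36. YSGr male 8 had a summed level of oligodendrocyte lineage markers of 9823 CPM, where the medians were 2383 CPM in YSGr and 2245 CPM in SG. Results that rest on either are also given without them.

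All 10 genes had log2 CPM above 0 in enough libraries to be tested. With the sexes averaged, 6 of them were lower in YSGr at an adjusted p under 0.05 in limma and 0 were higher, where 5.27% of the 14147 genes tested were lower and 6.16% were higher. The 6 were Hes5, Hes1, Mfng, Notch3, Notch1 and Dll1. The median log2 fold change of the 10 genes was -0.74, beside -0.00 over all genes tested. Because the list was chosen with earlier results of these data known, these values describe the 10 genes and are no test of the pathway. In 3 of the 10, Hes1, Hes5 and Mfng, each YSGr library lay below each SG library, which held for 2.96% of all genes tested. In bulk tissue, fewer cells of a type and less RNA per cell cannot be told apart, and this holds for every difference that follows.

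**Figure D1:**
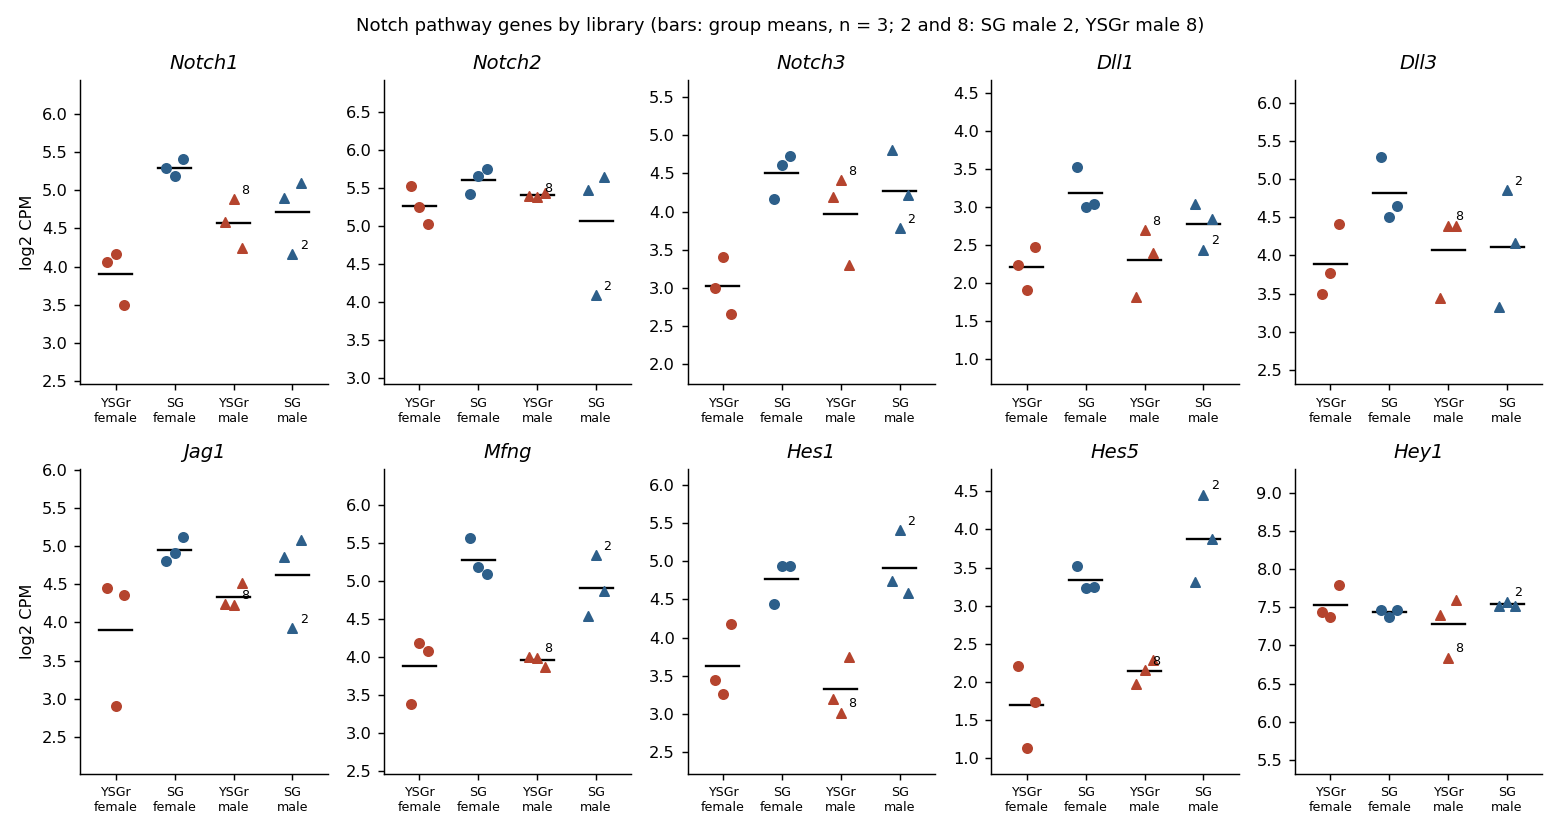
Deposited log2 CPM of the 10 genes in each library, with YSGr left of SG within each sex, circles for females, triangles for males and bars for group means (n = 3); SG male 2 and YSGr male 8 carry their numbers, and the axes span different ranges. Hes1, Hes5 and Mfng separate the genotypes completely, whereas Hey1 lies at about the same level in both. The means of Notch2 are also alike, but without SG male 2 its averaged log2 fold change was -0.25.

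The effector Hes5, a repressor of proneural genes and a widely used readout of Notch activity in neural progenitors, had the largest change. It had 1.13, 2.06 and 2.28 log2 CPM as the lowest, median and highest of the 6 YSGr libraries, against 3.23, 3.41 and 4.46 log2 CPM in SG. All YSGr libraries were low, YSGr female 11 was the lowest, and SG male 2 was the highest. In estimated reads this was 19 to 45 per YSGr library and 84 to 196 per SG library. Mean CPM was 3.42-fold lower in YSGr, and the log2 fold change was -1.69 (SE 0.22, adjusted p 0.000577). Without both libraries that stood apart, the male difference alone was -1.46 with an adjusted p of 0.0664 and was no longer called.

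Hes1, the related repressor that oscillates in progenitors and is also known to be induced by signals other than Notch, behaved in the same direction. It had 3.01, 3.35 and 4.18 log2 CPM as the lowest, median and highest in YSGr, against 4.44, 4.83 and 5.41 in SG. The groups did not overlap, and the highest YSGr library, female 12, lay just under the lowest SG library, female 4. Mean CPM was 2.57-fold lower in YSGr, and on the log2 scale the fold change was -1.37 (SE 0.21, adjusted p 0.0014). Hes1 fell in males (-1.59, adjusted p 0.0112), while in females the difference of -1.14 had an adjusted p of 0.0568. The female value passed when SG male 2 (adjusted p 0.0307), YSGr male 8 (0.0453) or YSGr female 12 (0.027) was left out, and the male value did not pass when SG male 2 and YSGr male 8 were both left out (-1.19, adjusted p 0.09).

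Hey1, another repressor of the family, did not follow Hes1 and Hes5. It had 6.84, 7.42 and 7.79 log2 CPM as the lowest, median and highest in YSGr and 7.37, 7.50 and 7.58 in SG. The 6 SG libraries were tight, and the YSGr libraries spread to both sides of them, with male 8 lowest and female 12 highest. The log2 fold change was -0.08 (SE 0.13, 95% interval -0.35 to 0.19, adjusted p 0.695), so a fall of the size seen for Hes1 lies outside the interval.

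Among the receptors, Notch1 and Notch3 fell and Notch2 did not pass the test. Notch1 had 3.50, 4.21 and 4.89 log2 CPM as the lowest, median and highest in YSGr, against 4.17, 5.14 and 5.41 in SG. The groups overlapped through SG male 2, the lowest SG library. All YSGr males lay above it, YSGr male 8 being the highest, and 3 YSGr libraries lay below it. Mean CPM was 1.69-fold lower in YSGr (log2 fold change -0.77, SE 0.18, adjusted p 0.0166). Without SG female 6 the adjusted p was 0.0501, and with genotype and sex as additive terms it was 0.0617.

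Notch3, the receptor best known from vascular smooth muscle and pericytes, had 2.66, 3.35 and 4.41 log2 CPM as the lowest, median and highest in YSGr, against 3.78, 4.41 and 4.80 in SG. Of the YSGr libraries, 4 lay below all SG libraries, and males 7 and 8 lay within the SG range. Mean CPM was 1.75-fold lower in YSGr (log2 fold change -0.89, SE 0.23, adjusted p 0.0254). This call was lost without SG male 1 (adjusted p 0.0544), SG female 5 (0.0664), SG female 6 (0.0749) or YSGr female 10 (0.0576), and with additive terms (0.0561).

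Notch2, a receptor of progenitors and glia, had 5.02, 5.39 and 5.53 log2 CPM in YSGr and 4.09, 5.56 and 5.75 in SG as the lowest, median and highest. Apart from SG male 2 at 4.09, the SG libraries lay at 5.42 or above, and the groups overlapped. The log2 fold change was -0.00 (SE 0.22, 95% interval -0.48 to 0.47, adjusted p 0.993). Without SG male 2 it was -0.25 and was not called, and the male difference changed sign, to -0.15. Per length, Notch2 made up 51.3% ± 6.8 of the summed CPM per kilobase of the 4 Notch receptors in YSGr and 38.1% ± 5.4 in SG (SD, n = 6 each). Its level was 3.75 ± 0.44 CPM per kilobase in YSGr and 3.98 ± 1.24 in SG, while Notch1 was at 1.37 CPM per kilobase in YSGr against 2.33 in SG, and Notch3 at 1.5 in YSGr against 2.63 in SG. The YSGr share was lowest in male 8, at 42.0%, and the SG share was lowest in male 2, at 27.8%.

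Of the ligands, Dll1 was lower and Dll3 and Jag1 did not pass the test. Dll1, a ligand of the Delta family, had 1.82, 2.32 and 2.69 log2 CPM as the lowest, median and highest in YSGr, against 2.44, 3.01 and 3.52 in SG, and 4 YSGr libraries lay below the lowest SG library, male 2. It was the lowest of the 10 genes per length, with 33 to 59 estimated reads in YSGr libraries and 47 to 111 in SG libraries. Mean CPM was 1.68-fold lower in YSGr (log2 fold change -0.72, SE 0.20, adjusted p 0.0334). The call was lost on leaving out SG male 1, SG male 3, SG female 4, SG female 5, SG female 6, YSGr males 7 or 9, or YSGr females 10 or 11, with adjusted p between 0.0508 and 0.0908.

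Dll3, an atypical ligand known to act inside the cell on its own Notch receptors, had 3.44, 4.08 and 4.42 log2 CPM as the lowest, median and highest in YSGr and 3.32, 4.58 and 5.30 in SG. SG male 1 was the lowest of all libraries and SG female 4 the highest, and the groups overlapped. The log2 fold change was -0.48 (SE 0.28, 95% interval -1.08 to 0.11, adjusted p 0.265).

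Jag1, the Jagged ligand of the list, had 2.91, 4.30 and 4.51 log2 CPM as the lowest, median and highest in YSGr and 3.92, 4.89 and 5.12 in SG. A single library lay far below the rest in each group, YSGr female 11 at 2.91 and SG male 2 at 3.92, and the groups overlapped. The log2 fold change was -0.66 (SE 0.26, 95% interval -1.23 to -0.10, adjusted p 0.118). Without SG male 2 it was -0.84 with an adjusted p of 0.0472.

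Mfng, the fringe enzyme of the list, had 3.38, 4.00 and 4.18 log2 CPM as the lowest, median and highest in YSGr, against 4.53, 5.14 and 5.56 in SG. The groups did not overlap in either sex. Mean CPM was 2.30-fold lower in YSGr, and the log2 fold change was -1.18 (SE 0.17, adjusted p 0.00119). Mfng, Hes1 and Hes5 stayed below an adjusted p of 0.05 with the sexes averaged under all 22 alternative settings, where their largest adjusted p was 0.00482, 0.00627 and 0.00261.

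**Figure D2:**
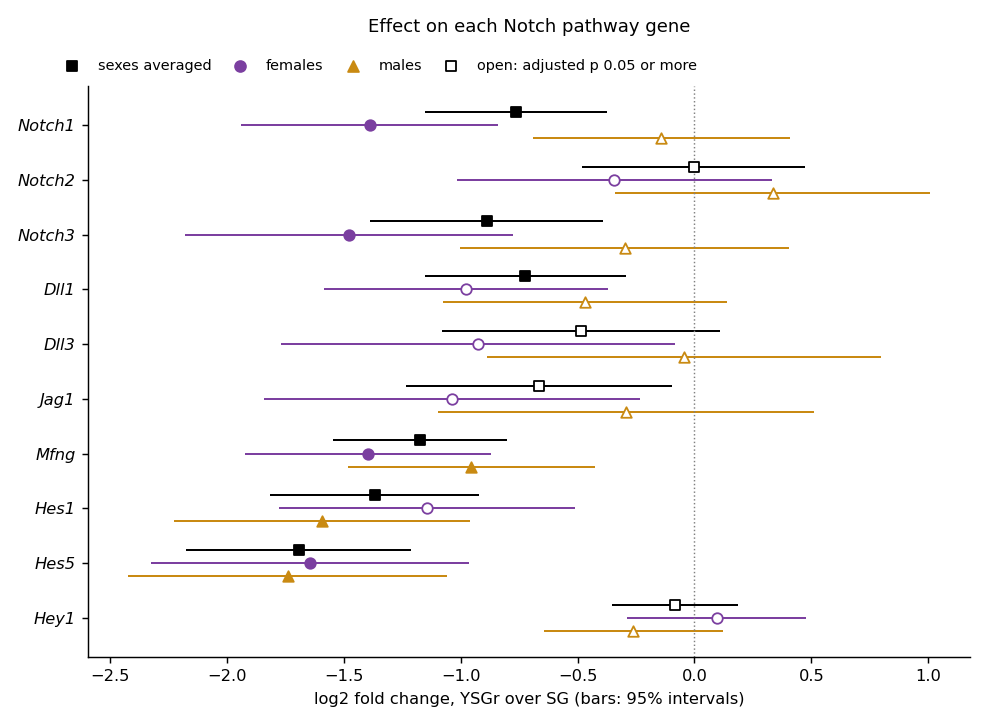
Log2 fold change of YSGr over SG for the 10 genes with the sexes averaged, in females and in males, with 95% intervals and open symbols where the adjusted p was 0.05 or more. Hes5 and Mfng are called in both sexes and Hes1 in males, and the female values of Notch1 (-1.39) and Notch3 (-1.48) lie left of the male values (-0.14 and -0.30).

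The sexes were then compared. In females, 4 of the 10 genes were lower in YSGr and 0 were higher (1.87% of all genes were lower): Notch1, Notch3, Mfng and Hes5. In 8 of the 10, all but Notch2 and Hey1, each YSGr female lay below each SG female, against 13.9% of all genes tested. In males, Hes1, Hes5 and Mfng were lower, 3 of 10, where 3.42% of all genes were lower. These were also the 3 genes without overlap in males, where 18.0% of all genes had each YSGr male below each SG male. The male log2 fold change depended on exon length over all genes: its median was -0.24 under 2500 bp and 0.21 at 8000 bp or more. In females these medians were 0.09 and -0.04. The part of exon length in the male values of the 10 genes, and in their female to male differences, was not tested.

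Notch1 had 4.06, 4.16 and 3.50 log2 CPM in the YSGr females, against 5.30, 5.18 and 5.41 in the SG females. In males it had 4.59, 4.89 and 4.25 in YSGr, against 4.89, 4.17 and 5.09 in SG. The female groups did not overlap and the male groups did. The male overlap came through SG male 2 at 4.17, the library with long genes low; without it the SG males lay above the YSGr males, though the nearest libraries of both were at 4.89. The female log2 fold change was -1.39 (SE 0.25, adjusted p 0.0118) and the male one was -0.14 (SE 0.25, adjusted p 0.732). The difference between them, -1.25 (SE 0.36), had an unadjusted p of 0.00423 and an adjusted p of 0.429. Without SG male 2 the male value of Notch1 was -0.42 (adjusted p 0.274) and the difference between the sexes -0.97 (adjusted p 0.588). The female call was lost without SG female 4 (adjusted p 0.0511), SG female 5 (0.0544) or SG female 6 (0.0702).

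Notch3 had 3.00, 3.41 and 2.66 log2 CPM in the YSGr females, against 4.17, 4.60 and 4.73 in the SG females, and 4.19, 4.41 and 3.3 in the YSGr males, against 4.80, 3.78 and 4.21 in the SG males. The female groups did not overlap and the male groups did. The female value was -1.48 (SE 0.33, adjusted p 0.0276), the male value -0.30 (SE 0.33, adjusted p 0.552) and their difference -1.18 (unadjusted p 0.0237, adjusted p 0.429). Without SG male 2 the male value of Notch3 was -0.54 and the male groups still overlapped. The female call was lost without SG female 4 (adjusted p 0.0572), SG female 5 (0.125), SG female 6 (0.142), YSGr female 10 (0.108) or YSGr female 12 (0.0858).

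Hes5 had 2.21, 1.13 and 1.73 log2 CPM in the YSGr females, against 3.52, 3.23 and 3.25 in the SG females, and 1.97, 2.16 and 2.28 in the YSGr males, against 3.3, 4.46 and 3.87 in the SG males. The log2 fold change was -1.64 in females (adjusted p 0.0144) and -1.74 in males (adjusted p 0.0102). The female call was lost without SG female 4 (adjusted p 0.0727), SG female 5 (0.065) or SG female 6 (0.0684).

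Mfng was at -1.40 in females (adjusted p 0.00951, and 0.0533 without SG female 4) and at -0.95 in males (adjusted p 0.0373). The male call was lost without SG male 2 (-0.74, adjusted p 0.108), and also without SG male 3, SG female 4, SG female 5, SG female 6 or any of YSGr males 7, 8 and 9, where adjusted p lay between 0.0521 and 0.0967. Of the genes called in neither sex alone, Dll1 was at -0.98 in females and -0.47 in males, Dll3 at -0.92 and -0.04, and Jag1 at -1.04 and -0.29. Hey1 was at 0.10 in females and -0.26 in males, and Notch2 at -0.34 in females and 0.34 in males.

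When the female effect was set against the male one, limma called 0 of the 10 genes and 0.00707% of all genes, that is 1 gene. At an unadjusted p under 0.05 it was 2 of the 10, Notch1 and Notch3, beside 11.6% of all genes. A sex difference of the effect was therefore not shown for any of the 10 genes. With libraries weighted by their quality, 4.77% of all genes passed, and 2 of the 10 did: Notch1 (-0.82, adjusted p 0.0381) and Mfng (-1.02, adjusted p 0.0411). In that fit the YSGr female mean rests mostly on female 10, with a weight of 3.33 against 0.27 and 0.42 for females 11 and 12.

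**Figure D3:**
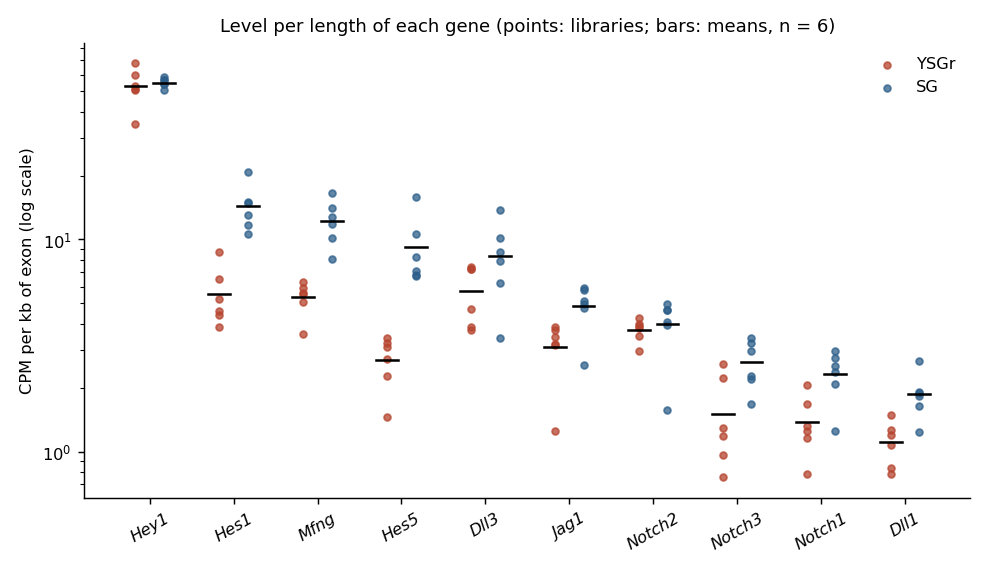
Level of the 10 genes as CPM per kilobase of exon on a log axis, one point per library and bars for means (n = 6), YSGr left of SG for each gene. Hey1 lies far above the rest in both genotypes, at 52.9 CPM per kilobase in YSGr and 55.0 in SG, and Dll1 is the lowest at 1.11 and 1.86.

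Levels per length set the order of the genes within the tumours. In YSGr, Hey1 stood highest at 52.9 ± 10.8 CPM per kilobase, followed by Dll3 at 5.72, Hes1 at 5.56, Mfng at 5.33, Notch2 at 3.75, Jag1 at 3.13, Hes5 at 2.70, Notch3 at 1.5, Notch1 at 1.37 and Dll1 at 1.11. In SG, Hey1 was at 55.0 ± 2.63 (SD, n = 6 in both genotypes), followed by Hes1 at 14.3, Mfng at 12.3, Hes5 at 9.24, Dll3 at 8.35, Jag1 at 4.85, Notch2 at 3.98, Notch3 at 2.63, Notch1 at 2.33 and Dll1 at 1.86. Apart from Hey1, neighbours in these orders had overlapping ranges over the libraries. The most abundant effector was thus the one without a change, and Hes1, Mfng and Hes5 held places 2 to 4 in SG and places 3, 4 and 7 in YSGr.

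The 10 genes lie on different chromosomes and share no neighbourhood, apart from Notch1 and Jag1 on chromosome 2 and Notch2 and Hey1 on chromosome 3, each pair far apart, and Notch3 and Dll1 on chromosome 17. By GENCODE M21 (build mm10), Hes5 spans chr4:154960923-154962371 on the plus strand, Hes1 chr16:30064384-30067796 on the plus strand, Mfng chr15:78755882-78773475 on the minus strand, Notch1 chr2:26457903-26516663 on the minus strand and Notch3 chr17:32120820-32166852 on the minus strand. Hes5 overlaps Gm20421 on the opposite strand, Notch3 overlaps the antisense gene Gm17276, Notch1 overlaps 3 annotated genes, Dll1 overlaps A930024N18Rik on the opposite strand, and Notch2 overlaps Gm42819 and Gm42820 on its own strand. How reads of these overlaps were assigned, and whether strand was used, the sources used here do not give, so the values of these 5 genes are uncertain to that extent. Hes1, Mfng, Jag1, Dll3 and Hey1 overlap no other annotated gene. Exon length was 1363 bp for Hes5 and 2037 bp for Hes1, against 14232 bp for Notch1 and 10782 bp for Notch2, and among the SG libraries male 2 was the highest for both Hes genes and the lowest for all 3 receptors.

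Beyond the 10 genes, 54 further genes of the pathway were listed, 53 were in the table and 52 were tested. With the sexes averaged, 7 were lower in YSGr and 0 were higher, and their median log2 fold change was -0.01. Among them were Nrarp, Heyl, Lfng, Tle1, Notch4 and Dtx1. Without SG male 2, 11 genes of the list were called. When both libraries that stood apart were left out, 12 genes of the list were called, in a fit that called 13.7% of all genes. All-gene counts moved too: 1617 genes were called with all libraries, and 903 to 2087 with 1 library left out. Such changes of the count are therefore not particular to the list. Among the roles given here, 2 of 4 tested targets, 1 of 4 glycosyltransferases, 1 of 7 trafficking factors and the receptor Notch4 were called, and 0 of 10 proteases, 0 of 5 ligands, 0 of 4 ligand ubiquitin ligases and 0 of 7 nuclear complex members. Over all genes tested, 5.27% were lower and 6.16% were higher, so a count of 0 in roles this small does not set them apart.

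Nrarp, a direct Notch target that feeds back on the nuclear complex, had 3.09, 3.61 and 4.01 log2 CPM as the lowest, median and highest in YSGr, against 5.04, 5.22 and 5.54 in SG. The groups lay a full log2 unit apart. Mean CPM was 3.10-fold lower in YSGr (log2 fold change -1.64, SE 0.16, adjusted p 9.0e-05), and Nrarp fell in females (-1.54, adjusted p 0.0039) and in males (-1.74, adjusted p 0.00223).

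Heyl, a Hey family repressor known from vascular smooth muscle, had 1.05, 1.70 and 3.14 log2 CPM in YSGr, against 3.33, 3.54 and 3.84 in SG, as the lowest, median and highest. The groups did not overlap. Mean CPM was 3.05-fold lower in YSGr (log2 fold change -1.73, SE 0.29, adjusted p 0.00266). Hey2, the arterial member of the family, was at -0.18 (adjusted p 0.57), and did not pass the test, nor did Hes3 (-0.27, adjusted p 0.765), whose YSGr libraries, at 0.57 to 3.76 log2 CPM, spread to both sides of the SG ones at 2.29 to 2.73.

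Lfng, the lunatic fringe enzyme, had 5.24, 5.75 and 5.84 log2 CPM as the lowest, median and highest in YSGr, against 6.26, 6.45 and 6.52 in SG, without overlap (log2 fold change -0.80, SE 0.13, adjusted p 0.0022). Both Lfng and Mfng were therefore lower. Tle1, a Groucho protein that Hes proteins recruit, fell by 0.54 on the log2 scale (adjusted p 0.00298). Notch4, an endothelial receptor, fell by 0.64 (adjusted p 0.0172) and Dtx1, a ubiquitin ligase that binds the receptor, by 0.52 (adjusted p 0.0145).

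Rbpj itself had 6.35, 6.66 and 7.14 log2 CPM in YSGr and 6.39, 6.72 and 6.88 in SG as the lowest, median and highest, and its log2 fold change was 0.02 (adjusted p 0.9). The ligands Dll4 and Jag2 were at -0.37 (adjusted p 0.189) and 0.12 (adjusted p 0.812), and the coactivator Maml1 at -0.43 (adjusted p 0.0705). None of these passed the test. For Jag2, YSGr male 8 stood apart at 4.26 log2 CPM. The other YSGr libraries were at 1.78 to 2.69 and the SG libraries at 2.28 to 2.91. A fold change of Jag2 without YSGr male 8 is not given here, so the sign of its value is uncertain.

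**Figure D4:**
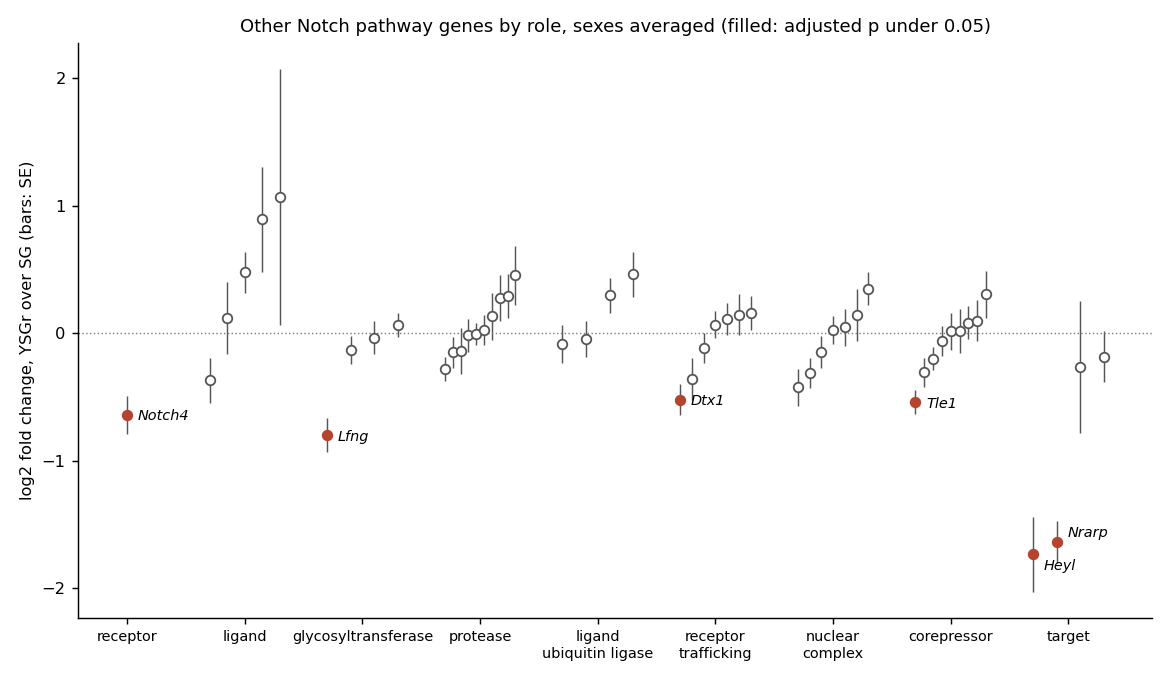
Log2 fold change of YSGr over SG, sexes averaged, for other Notch pathway genes grouped by role, with SE bars and filled points where the adjusted p was under 0.05. The 6 called genes shown lie below 0, with Heyl (-1.73) and Nrarp (-1.64) lowest.

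Proneural and neurogenic factors, some of which Hes repressors are known to hold down, moved in both directions. Of 9 listed genes 7 were in the table and tested, and 2 were lower and 1 was higher. Atoh1, the factor that keeps granule neuron progenitors dividing, was lower (-0.59, adjusted p 0.00758), as was Hes6 (-0.87, adjusted p 0.00332), a Hes relative that is known to counteract Hes1. Neurod1, a factor of granule neuron differentiation, was higher (0.51, adjusted p 0.038). Beside them, 2 of 10 markers of differentiating granule neurons were higher, Snap25 and Reln, and 3 of 10 progenitor markers were lower, Barhl1, Mfap4 and Gli1. The progenitor list as a whole was split, with a negative log2 fold change in 5 of 10 and a median of -0.07. The count of differentiating markers was 1 when YSGr male 9, YSGr female 10 or any 1 of SG females 4, 5 and 6 was left out. All-gene counts also ranged from 903 to 2087 with 1 library left out.

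Notch genes are used by several cell types, so markers of these were read in the same fit. Of 14 neural stem cell and astrocyte markers, 4 were lower (Sox2, Sox9, Nes and Fabp7) and 1 was higher, the astrocyte filament Gfap (0.98, adjusted p 0.0139). Sox2 was at -0.69 (adjusted p 0.00442). The log2 fold change was negative in 11 of the 14, with a median of -0.35. The summed level of the list was 2012 to 4220 CPM in YSGr and 2853 to 4150 CPM in SG, so the sums overlapped. No marker of this list was at the lowest value in any library.

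Of 14 endothelial markers, 6 were lower (Kdr, Cldn5, Eng, Esam, Tie1 and Cdh5) and 1 was higher, Vwf. Without SG female 6, 4 of the list were called, in a fit that called 903 of all genes, against 1617 with all libraries. The summed level of the endothelial markers was 108 to 188 CPM in YSGr and 152 to 228 CPM in SG, and none of them was at the lowest value. Of 11 pericyte and smooth muscle markers, 3 were lower (Pdgfrb, Cspg4 and Vtn), and the summed level was 120 to 200 CPM in YSGr and 175 to 222 CPM in SG; the smooth muscle marker Myh11 was at the lowest value, 0 reads, in 1 library, YSGr female 12. Kdr, the main VEGF receptor, was at -1.55 (adjusted p 0.000827) and Pdgfrb, the PDGF receptor of pericytes, at -1.09 (adjusted p 0.00253). Pdgfrb fell in females (-1.64, adjusted p 0.00568) and was at -0.54 in males (adjusted p 0.179), and YSGr male 8 had the highest sum of both lists among the YSGr libraries. The log2 fold change was negative in 11 of 14 endothelial and 8 of 11 pericyte and smooth muscle markers. In males alone it was negative in 8 of 14 and 7 of 11, and 0 pericyte and smooth muscle markers were called. The vessel markers called lower moved in the same direction as Notch3, Notch4, Heyl and Nrarp, but also as Hes1, Hes5 and Mfng. The part of vessel cells in the values of these genes was not tested.

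Of the remaining lists, 1 of 5 tested arterial markers was lower (Gja4), and 2 of 10 oligodendrocyte lineage markers were lower (Olig1 and Olig2). Of the ependyma and choroid plexus markers 1 of 6 was lower (Clic6), and 3 of 9 microglia and macrophage markers were higher (Ptprc, Itgam and Lyz2). The log2 fold change was negative in 3 of 5 arterial, 4 of 10 oligodendrocyte lineage and 3 of 6 ependyma and choroid plexus markers. Their medians were -0.08, 0.13 and -0.07, so these lists were split. For microglia and macrophages it was negative in 2 of 9, with a median of 0.41. Gja4 was not called, and the arterial count was 0, without SG male 2, SG male 3, SG female 4, SG female 5, SG female 6, YSGr males 8 or 9, or YSGr female 10. The microglia and macrophage count was 6 without SG male 2, and the ependyma and choroid plexus count was 2 without YSGr male 7. With 1 library left out, all-gene counts also ranged from 903 to 2087, so these changes are not particular to the lists. The microglia and macrophage sum was 511 to 857 CPM in YSGr and 358 to 419 CPM in SG, without overlap, and its part in the differences of the Notch genes was not tested.

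**Figure D5:**
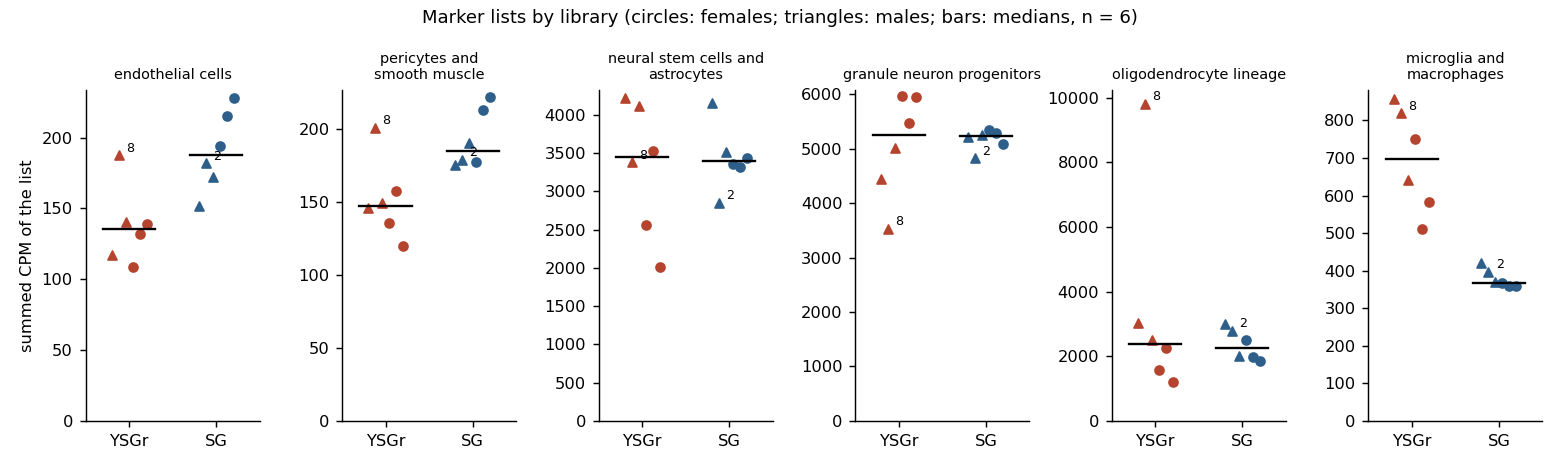
Summed CPM of 6 marker lists by library on linear axes that start at 0, YSGr left of SG, with circles for females, triangles for males, bars for medians (n = 6) and numbers on SG male 2 and YSGr male 8. The microglia and macrophage sum of YSGr (511 to 857 CPM) lies above that of SG (358 to 419 CPM), and the endothelial and pericyte sums of YSGr lie mostly below those of SG.

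The genes most like the Notch genes across libraries were found from deviations of the 12 libraries from their group means, over 10590 genes, so that the genotype difference itself played no part. The values are descriptions without a test. They share the libraries and the length dependence of SG male 2, in which long genes were low and short genes, the Hes genes among them, were high. Nearest to Notch2 were Tet2 (Pearson r 0.99), Rad54l2 (0.99) and Prrc2c (0.98), and nearest to Notch1 were Adam19, Rere and Tmem181a (each 0.96). Nearest to Notch3 were Amigo2 (0.98), Slc41a1 (0.95) and Zkscan2 (0.91), and nearest to Jag1 were Cep152 (0.98), Nup155 (0.97) and Mki67 (0.97). Nearest to Hes1 were Cdkn2aipnl (0.98), Nup62 (0.96) and Rpl5 (0.95), and nearest to Hes5 were Letmd1 (0.95), Tsc22d1 (0.93) and Dyrk1b (0.93).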

How the data were processed

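Total RNA of 12 medulloblastoma libraries (6 per genotype, 3 per genotype and sex) was sequenced with BGISEQ-500, as the labels state. The authors deposited log2 CPM for 15672 genes. Per the submitters' processing notes they named Trimmomatic 0.33, RSEM 1.2.12, Bowtie2, Picard 1.95, edgeR 3.30.3 and the build mm10; the sources used here do not give the annotation, the strand setting or the gene filter. The lowest value was -2.24 log2 CPM in each library, which corresponds to 0 reads plus a prior of about 2 reads, so fold changes on this scale understate those of low genes. Turned back from log2, the values lay on equal steps and gave estimated reads; 92.0 to 93.1% of genes had a whole number, with a tolerance of 0.02. A floor of 3 reads is 0.301 to 0.333 CPM. The identity check found 0 pairs of libraries with the same values.

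limma 3.58.1 in R 4.3.3 was fitted to the deposited log2 CPM of the 14147 genes above 0 in at least 3 libraries, with 1 mean for each of the 4 groups, a mean-variance trend, two-sided tests and Benjamini-Hochberg adjustment over all genes at 0.05. YSGr was contrasted with SG as the mean of both sexes and within each sex, and the female effect minus the male effect was tested too. Fold values in CPM are ratios of group means. CPM per kilobase divides by the union of exons in GENCODE M21. The procedure was tested on simulated data. The 10 genes, the pathway list and the marker lists were chosen with earlier results of these data known. Named genes were the 10, up to 6 called genes per list with the smallest adjusted p, and Notch4, Dll4, Jag2, Lfng, Rbpj, Maml1, Nrarp, Hey2 and Heyl whatever their value; Cdh5 was added after its value was seen. One gene of the pathway list that was called is counted but not reported here. Alternatives were other filters, scalings, pseudocounts, trends and weights, voom on estimated reads, fits by sex, additive terms and each library left out.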

Additional observations from a re-analysis of the deposited data

Results flagged for a closer look

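In 20 groups of 6 libraries (10 genes in 2 genotypes), the highest or lowest library was compared with the others by Dixon's ratio against its 95% limit. Chance alone marks about 1 in 20 groups. It marked 3. Jag1 in YSGr female 11 was at 2.91 log2 CPM, where the other YSGr libraries were at 4.23 to 4.51 (ratio 0.82). Notch2 in SG male 2 was at 4.09 log2 CPM, where the other SG libraries were at 5.42 to 5.75 (ratio 0.80). Jag1 in SG male 2 was at 3.92 log2 CPM, where the other SG libraries were at 4.81 to 5.12 (ratio 0.74).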

How the results depend on the processing

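Another scaling by median ratios, log2(CPM + 1), a stricter filter, a robust fit and voom on estimated reads left the counts of called genes among the 10 at 6 with the sexes averaged, 4 in females, 3 in males and 0 for the difference of the sexes. No filter on low values gave 3 of the 10 in females (Notch3 was lost, adjusted p 0.0551) and 2 in males (Mfng was lost, 0.0558), and no mean-variance trend gave 2 in males (Mfng, 0.0521). Library weights gave SG male 2 the lowest weight (0.10). With them, all-gene counts were 4986 with the sexes averaged, 4483 in females, 2326 in males and 675 for the difference, against 1617, 426, 1111 and 1. Of the 10 genes, 8 were then called in females and 2 for the difference. YSGr female 10 had a weight of 3.33, against 0.27 for female 11 and 0.42 for female 12. The weighted YSGr female means therefore rest mostly on female 10. Fits on 1 sex alone called 761 genes in females and 318 in males. Leaving out SG male 2 and YSGr male 8 together, chosen after seeing the data, called 1267 genes in females, 247 in males, and 0 of the 10 in males (6 averaged, 6 in females). That fit has 2 males per genotype, and the male values of Hes1, Hes5 and Mfng were -1.19, -1.46 and -0.76 in it. Additive terms for genotype and sex called 4 of the 10.

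With each library left out in turn, all-gene counts ranged from 903 (without SG female 6) to 2087 (without YSGr female 12) with the sexes averaged, from 94 (without SG female 6) to 785 (without SG male 2) in females, from 289 (without YSGr male 8) to 1665 (without YSGr female 11) in males, and from 1 to 115 for the difference. Of the 10 genes, 3 (without SG female 6) to 7 (without SG male 2) were called averaged, 0 (without SG female 4) to 5 (without SG male 2) in females, 2 to 3 in males and 0 for the difference.

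Signs changed only for values that were called in neither fit, and the cause was not tested. Notch2 averaged was 0.0031 with median ratios and -0.25 to 0.14 over the leave-outs (above 0 in 6); in males it was -0.11 with weights, -0.15 without SG male 2 and -0.14 without both libraries, over leave-outs -0.15 to 0.62. Dll3 in males was 0.18 with weights, 0.17 without both libraries, and -0.44 to 0.33 over leave-outs (above 0 without YSGr male 7 or SG male 2). The Hes5 difference of the sexes was -0.18 without both libraries, and -0.19 to 0.38 over leave-outs (below 0 without YSGr female 10 or SG male 2). Notch1 in males ranged from -0.42 to 0.046 over leave-outs (above 0 without SG male 3 or YSGr male 9), Notch3 in males from -0.54 to 0.035 (above 0 without YSGr male 9), Hey1 averaged from -0.16 to 0.027 (above 0 without YSGr male 8) and 0.035 without both libraries, and Hey1 in females -0.033 without YSGr female 12.

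No paired analysis was possible because the library numbers 1 to 12 do not repeat between groups. With 3 libraries per genotype and sex and these read depths, low genes such as Dll1 and Hes5 carry the widest counting error.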
